A study of Homo sapiens with 12 samples.

Results

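The genes described here are 35 named enzymes and transporters that supply cells with nucleotides, taken by symbol from a table of 58302 gene rows in which all 35 were found. They cover ribonucleotide reductase, thymidylate supply, de novo pyrimidine and purine synthesis, the branches from IMP to AMP and GMP, folate one-carbon transfer, salvage with transport, and nucleoside mono- and diphosphate kinases. All 35 passed the filter on low counts, beside 17849 genes tested in all. RNA was sequenced from the lung cancer line NCI-H520, of human squamous cell carcinoma origin, with 4 groups of 3 libraries. The first group carried the chimeric transcript L1-FGGY from a lentivirus in stable expression (OV-L1-FGGY) with 0.2% DMSO, the second the same construct with 10 μM ML355, an inhibitor of 12-lipoxygenase (12-LOX), and the third is labelled as the same construct with 450 μM NVR, a reverse transcriptase inhibitor. The fourth was a control with 0.2% DMSO, read here as the empty-vector line (OV-CTRL), since its label names only DMSO. All 4 groups are listed with 0.2% DMSO, the inhibitor groups included, and a group named by DMSO below had no inhibitor. The medium was replaced with the compound 5 h after seeding, and the length of treatment is not given in the sources used here. The labels do not say whether the 3 libraries of a group came from separate cultures, so the p-values measure the spread between these libraries, which may be technical.

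Purines and pyrimidines are built from amino acids, bicarbonate and phosphoribosyl pyrophosphate (PRPP), with one-carbon units carried by folate, or are recovered from bases and nucleosides by salvage. Ribonucleotide reductase turns ribonucleotides into deoxyribonucleotides, and thymidylate synthase adds the methyl group that distinguishes thymine in DNA from uracil in RNA. Many of these genes are transcribed in step with S phase, in part through E2F factors, while the transcription factor MYC is known to bind E-boxes at several purine and pyrimidine genes. Dividing tumour cells depend on these pathways, which are targets of antimetabolite drugs.

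RefSeq promoter windows on GRCh38.p14, from 250 bases before to 50 bases after a start site, were found for 33 of the 35 genes, with 52 windows among them. The E2F element was searched in the forms TTTGGCGC, TTTCGCGC, TTTCCCGC and TTTGCCGC, the E-box as CACGTG and the NF-Y box as CCAAT, on both strands. CACGTG stood in 11 of the 52 windows (21.2%), against 7.26% of 35116 windows of all genes, and belonged to ATIC, PPAT, PAICS, DCK, SLC29A1, MTHFD1L, MTHFD1, DHODH and NME1. The 11 windows held 9 distinct sites, since the 3 windows of MTHFD1L cover the same site, as do those of PPAT and PAICS, and ATIC holds 2. Counted by gene, 9 of 33 members (27.3%) had the E-box in a window, against 8.77% of 27305 genes. Any of the 4 E2F forms stood in 5 windows (9.62%), of DCK, DUT, TYMS, GART and PRPS2, against 3.31% of all windows. CCAAT was as frequent in the members' windows as in all windows, at 34.6% of each. The 130 bases before the start are printed for some members that hold a motif there, with the motifs in capitals. ATTGG is CCAAT and GCGGGAAA is TTTCCCGC read on the other strand. RRM2, RRM1 and TK1 are shown for the NF-Y box, TYMS, DUT and PRPS2 for an E2F form, and DCK, MTHFD1 and MTHFD1L for the E-box.
RRM2, chr2:10122609-10122738, plus strand: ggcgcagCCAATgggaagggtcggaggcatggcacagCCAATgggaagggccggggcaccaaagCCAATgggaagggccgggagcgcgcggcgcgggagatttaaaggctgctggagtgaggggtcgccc
RRM1, chr11:4094555-4094684, plus strand: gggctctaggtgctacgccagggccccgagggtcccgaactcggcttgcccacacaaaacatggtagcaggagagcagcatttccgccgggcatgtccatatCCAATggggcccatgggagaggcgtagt
TK1, chr17:78187053-78187182, minus strand: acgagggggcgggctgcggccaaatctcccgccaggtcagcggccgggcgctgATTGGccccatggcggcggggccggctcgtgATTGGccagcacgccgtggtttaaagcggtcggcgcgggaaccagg
TYMS, chr18:657523-657652, plus strand: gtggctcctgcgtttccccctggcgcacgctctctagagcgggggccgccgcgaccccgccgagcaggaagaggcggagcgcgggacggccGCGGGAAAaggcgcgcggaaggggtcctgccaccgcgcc
DUT, chr15:48332067-48332196, plus strand: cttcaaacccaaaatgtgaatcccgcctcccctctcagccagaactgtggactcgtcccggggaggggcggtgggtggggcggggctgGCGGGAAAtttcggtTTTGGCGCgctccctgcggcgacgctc
PRPS2, chrX:12791282-12791411, plus strand: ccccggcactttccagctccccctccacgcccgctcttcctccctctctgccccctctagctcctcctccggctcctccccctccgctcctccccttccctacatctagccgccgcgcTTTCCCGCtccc
DCK, chr4:70993519-70993648, plus strand: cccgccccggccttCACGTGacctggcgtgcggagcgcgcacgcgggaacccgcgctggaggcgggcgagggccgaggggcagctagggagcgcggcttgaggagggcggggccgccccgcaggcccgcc
MTHFD1, chr14:64388223-64388352, plus strand: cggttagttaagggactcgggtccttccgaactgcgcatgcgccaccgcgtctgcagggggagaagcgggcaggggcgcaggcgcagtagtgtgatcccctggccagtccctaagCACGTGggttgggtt
MTHFD1L, chr6:150866317-150866446, plus strand: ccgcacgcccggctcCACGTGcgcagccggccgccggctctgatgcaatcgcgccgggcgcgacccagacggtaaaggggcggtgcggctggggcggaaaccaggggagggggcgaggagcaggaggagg
RRM2 held 3 copies of CCAAT in this stretch and TK1 held 2. A match describes the sequence and does not show that a factor binds there. PPAT and PAICS, which encode an early and a later enzyme of purine synthesis, are transcribed away from each other from starts 125 bases apart, so that their windows cover the same E-box.

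Total counts per library ran from 16242082 to 27004768. FGGY, the gene joined to L1 in the chimeric transcript L1-FGGY, had 4782 to 6196 counts in OV-L1-FGGY with DMSO and 5080 to 7346 with ML355. It had only 82 to 103 in the libraries labelled NVR and 78 to 91 in the control. The libraries labelled NVR thus stood with the control and not with the construct named in their label. Across genes, the log2 of CPM, the count of a gene scaled by its library's total and TMM factor, correlated at 0.932 or more between the libraries labelled NVR and the control, and between ML355 and DMSO in OV-L1-FGGY, and at 0.706 to 0.774 between these 2 sides. For this reason the libraries labelled NVR were compared with the control. The comparison their label implies, with OV-L1-FGGY in DMSO, is given as well. By the labels, the comparison with the control changes the construct and the compound together. Of 9 epithelial markers, KRT8 and EPCAM are not specific to squamous cells. KRT5, KRT6A, PKP1 and DSG3 had 3 counts or fewer in every library. SOX2 had 128 to 446 counts in the control and labelled NVR libraries and 0 in the other 6. TP63 had 34 to 108 counts in the control and labelled NVR libraries and 1 to 16 in OV-L1-FGGY with or without ML355. KRT8, the most abundant of the 9, was at 2940 to 3940 CPM in the control, 1460 to 2300 CPM for labelled NVR, 550 to 581 CPM in OV-L1-FGGY with DMSO and 303 to 390 CPM with ML355. EPCAM and KRT14 went the other way, with EPCAM at 7.36 to 10.0 CPM in the 6 OV-L1-FGGY libraries and 0.701 to 1.88 CPM in the other 6, and KRT14 at 4 to 63 counts against 0. The summed level of 6 fibroblast markers was 341 to 360 CPM in OV-L1-FGGY with DMSO, 112 to 122 CPM with ML355 and 19.7 to 25.7 CPM in the other 6 libraries, where COL1A2, DCN and LUM had 3 counts or fewer, and 5 leukocyte markers summed to at most 3.81 CPM in any library. Between labelled NVR and the control, the sum of 5 neuroendocrine markers was 16.7 to 23.8 CPM against 5.2 to 7.61 CPM, mostly of SYP (13.6 to 19.9 against 3.71 to 4.88 CPM) and with INSM1 at 3 counts or fewer, and that of 5 alveolar or adenocarcinoma markers was 7.59 to 10.6 CPM against 4.58 to 5.43 CPM. The sum of 4 endothelial markers was 8.89 to 9.41 CPM in OV-L1-FGGY with DMSO and at most 0.701 CPM in the other 9 libraries. The part of these differences in the results below was not tested.

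In OV-L1-FGGY cells, ML355 was accompanied by a higher level of 6 of the 35 genes and a lower level of 9 at an edgeR adjusted p under 0.01. The 6 were IMPDH2, MTHFD1L, PRPS1, PPAT, GMPS and APRT, and the 9 were RRM2, UMPS, PFAS, CTPS1, SHMT1, ADSL, ADSS2, TYMS and IMPDH1. Among all genes tested, 21.3% were higher and 23.5% lower in this comparison, so that the members' shares of 17.1% and 25.7% were near the background. The median log2 fold change of the 35 was -0.18, against 0.00 over all genes tested. The log2 fold changes ran from -1.56 for RRM2 to 2.09 for IMPDH2. Of the 15 calls, 8 held under each of 20 alternative analyses at the same threshold.

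Against the control, 22 of the 35 genes were lower in the libraries labelled NVR, and 1, IMPDH2, was higher. The background was 15.3% lower and 14.5% higher among all genes tested, against 62.9% and 2.86% of the members. The median log2 fold change was -0.69 over the members and 0.00 over all genes. The lower genes came from 7 of the 8 role groups, and the nucleoside mono- and diphosphate kinases had none. The members' share of all counts was 0.359% ± 0.00636 (SD, n = 3) in the control and 0.232% ± 0.00273 for labelled NVR. In OV-L1-FGGY it was 0.352% ± 0.00333 with DMSO and 0.329% ± 0.00105 with ML355. In RNA of whole cultures, fewer cells that express a gene and less of its RNA per cell cannot be told apart. The count of lower members was 23 without labelled NVR library 3, which had the lowest scaling factor of all 12, 20 without library 1 and 22 without library 2. With the library size as the only scaling, the split of all called genes in this comparison moved from 48.8% to 36.3% higher and the median of all genes to -0.15, while the members' median was -0.84.

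**Figure D1:**
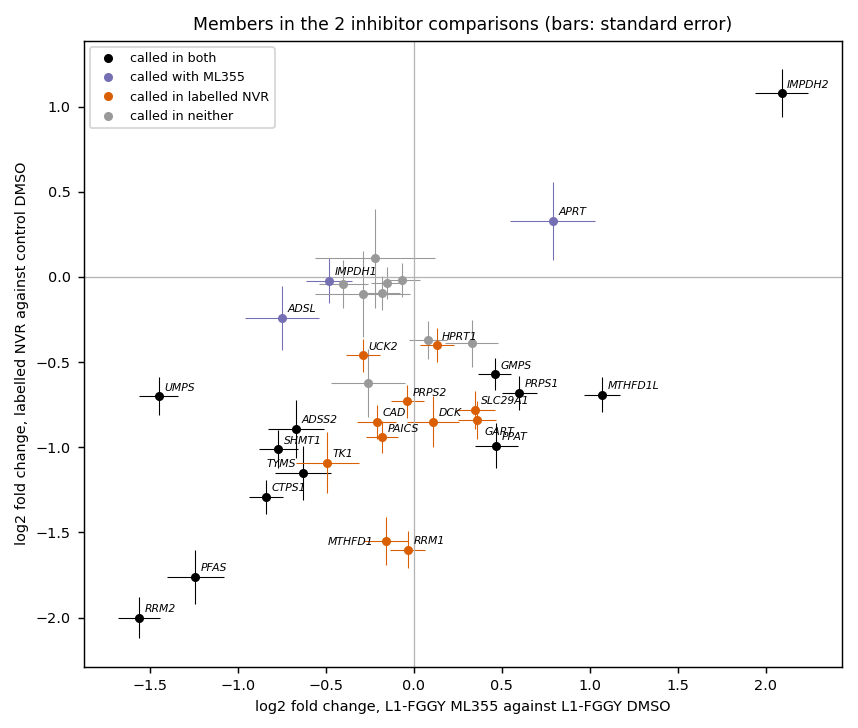
Log2 fold change of each of the 35 genes with ML355 against DMSO in OV-L1-FGGY (horizontal axis) and in the libraries labelled NVR against the control (vertical axis), with standard errors as bars and colours for an edgeR adjusted p under 0.01. The comparisons share no library, and IMPDH2 is the member called higher in both, while RRM2, PFAS, CTPS1, TYMS, SHMT1, ADSS2 and UMPS were called lower in both.

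These 2 comparisons shared no libraries. Of the 9 genes lower with ML355, 7 were also among the 22 lower in the libraries labelled NVR, namely RRM2, TYMS, UMPS, CTPS1, PFAS, ADSS2 and SHMT1. Of all genes tested, 4.95% were lower in both comparisons. Among all genes lower with ML355, 21.1% were also lower in the libraries labelled NVR. Of all 35 members, whatever their call with ML355, 62.9% were lower there. PRPS1, PPAT, GMPS and MTHFD1L, 4 of the 6 higher with ML355, were lower in the libraries labelled NVR, as were 13.4% of all genes higher with ML355. A further 11 of the 35 members were lower in the libraries labelled NVR without a call with ML355, as were 7.44% of all genes tested. Called in neither were 9 members, DUT, DCTD, DTYMK, DHODH, CTPS2, ATIC, CMPK1, NME1 and NME2, and 40.3% of all genes tested. The difference between the 2 effects was itself tested with all 12 libraries in the fit, and 15 members were lower in it and 1 higher, where lower means that the change in the libraries labelled NVR lay below the change with ML355. Of all genes, 17.3% were lower and 16.8% higher in this test. The members' median difference was -0.51, against 0.02 over all genes.

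**Figure D2:**
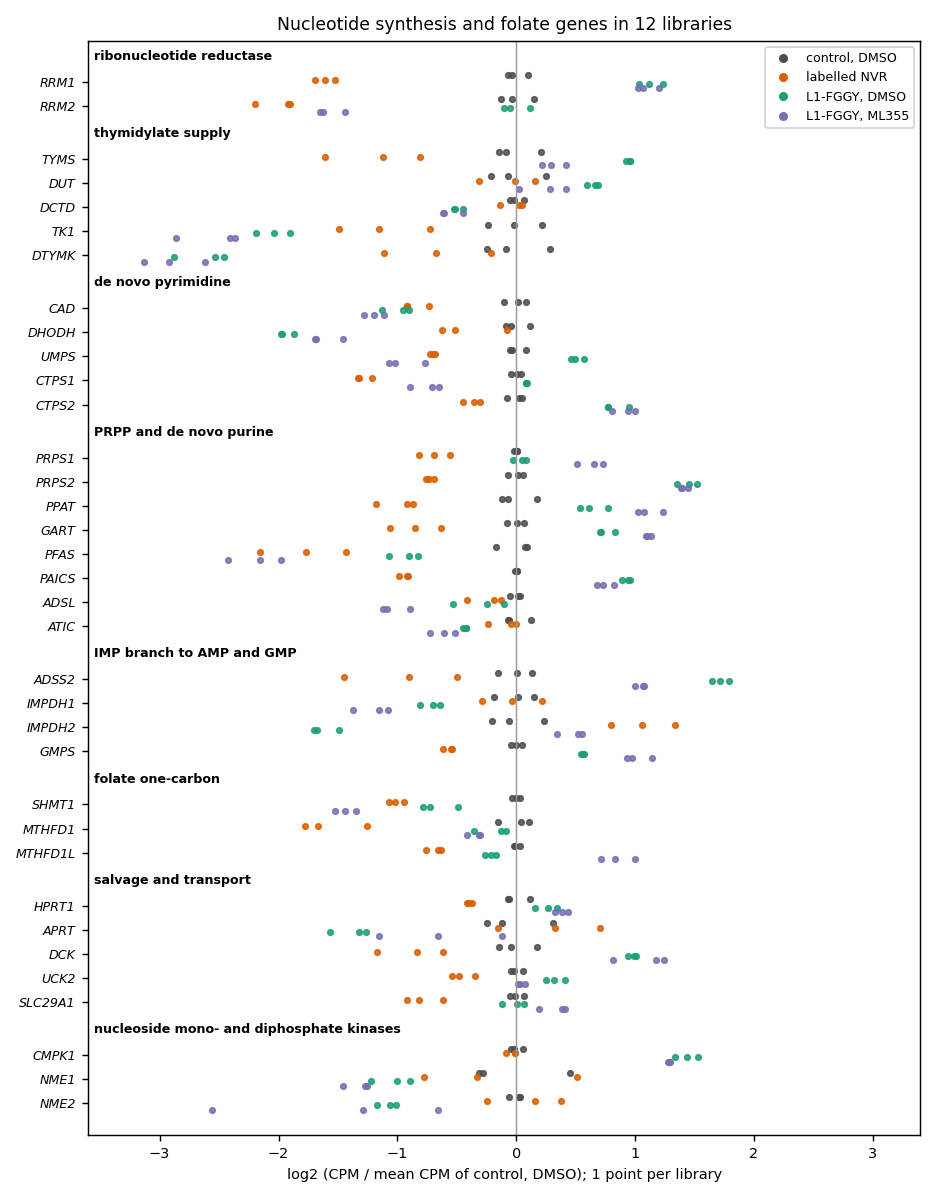
Each point is 1 of the 12 libraries, plotted as the log2 ratio of its CPM to the mean CPM of the 3 control libraries, with the 35 genes in rows by role. The libraries labelled NVR had the lowest group mean in 20 of the 35 genes, those with ML355 in 12 and the control in 0. These are ranks of group means without a test, and the same ranks over all genes tested are not reported here. The ranks also compare groups across the gap in FGGY.

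Ribonucleotide reductase, which makes all deoxyribonucleotides, is built from a large subunit encoded by RRM1 and a small subunit encoded by RRM2 whose level follows the cell cycle. RRM2 measured 97.3, 86.5 and 83.7 CPM in OV-L1-FGGY with DMSO and 33.1, 29.1 and 28.5 CPM with ML355, a log2 fold change of -1.56 (SE 0.12, edgeR adjusted p = 3.15e-08). It measured 99.4, 87.6 and 82.1 CPM in the control and 23.7, 19.6 and 24.0 CPM in the libraries labelled NVR, a log2 fold change of -2.0 (SE 0.12, edgeR adjusted p = 1.26e-08). Neither pair of groups overlapped, and the log2 fold change between the 2 DMSO groups was -0.0084 (SE 0.12, edgeR adjusted p = 0.951). RRM1 was not called with ML355. Its 3 values were 227, 207 and 201 CPM with ML355 and 233, 202 and 215 CPM with DMSO, which overlapped, at a log2 fold change of -0.033 (SE 0.10). RRM1 measured 94.3, 96.7 and 106 CPM in the control and 32.5, 34.5 and 30.6 CPM in the libraries labelled NVR, and fell by 1.60 on the log2 scale (SE 0.11, edgeR adjusted p = 2.08e-08). The 2 effects on RRM1 differed by -1.57 (SE 0.14, edgeR adjusted p = 4.32e-07), and those on RRM2 by -0.44 (SE 0.17, edgeR adjusted p = 0.0409), which did not pass the threshold.

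Of the 5 genes of thymidylate supply, TYMS was the one lower with ML355, and TYMS and TK1 were lower in the libraries labelled NVR. TYMS, thymidylate synthase, measured 51.5, 50.2 and 51.3 CPM in OV-L1-FGGY with DMSO and 32.4, 30.8 and 35.4 CPM with ML355, a log2 fold change of -0.63 (SE 0.16, edgeR adjusted p = 0.00257). It measured 30.5, 24.0 and 24.9 CPM in the control and 12.2, 8.66 and 15.1 CPM in the libraries labelled NVR, a log2 fold change of -1.15 (SE 0.16, edgeR adjusted p = 4.48e-05). The groups of each pair were apart, but the call with ML355 was lost without ML355 library 1 (edgeR adjusted p = 0.0111) or 2 (0.0121). TYMS shares 39.9% of its exon bases with ENOSF1 and 7.97% with TYMSOS on the other strand, and whether counting used the strand is not given in the sources used here. TK1, the thymidine kinase of the cytosol and a salvage enzyme of S phase, measured 540, 458 and 394 CPM in the control and 208, 165 and 281 CPM in the libraries labelled NVR, a log2 fold change of -1.09 (SE 0.18, edgeR adjusted p = 0.000187). In OV-L1-FGGY it measured 113, 124 and 102 CPM with DMSO and 87.6, 63.8 and 90.1 CPM with ML355, groups that did not overlap, at a log2 fold change of -0.49 (SE 0.18, edgeR adjusted p = 0.0301) that missed the threshold. Per kilobase of transcript, TK1 in the control had the highest mean of all members in any group, at 324 CPM per kb. DUT, which removes dUTP and supplies dUMP, overlapped between the libraries labelled NVR (66.7, 53.9 and 74.6 CPM) and the control (79.6, 63.7 and 57.7 CPM). A promoter window of DUT holds 2 forms of the E2F element. DCTD, the dCMP deaminase, and DTYMK, the kinase of dTMP, were called in neither comparison, at log2 fold changes of -0.065 and -0.26 with ML355 and -0.017 and -0.62 in the libraries labelled NVR.

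UMPS and CTPS1, which act late in pyrimidine synthesis, fell in both comparisons, and CAD fell in the libraries labelled NVR. UMPS, which completes UMP, measured 61.4, 64.6 and 59.9 CPM in OV-L1-FGGY with DMSO and 20.7, 25.5 and 21.5 CPM with ML355, a log2 fold change of -1.45 (SE 0.11, edgeR adjusted p = 2.0e-08). In the control it measured 46.0, 42.5 and 42.0 CPM and in the libraries labelled NVR 26.8, 27.1 and 26.3 CPM, a log2 fold change of -0.70 (SE 0.11, edgeR adjusted p = 8.63e-05). The groups did not overlap in either comparison, and UMPS was the 1 member whose fall with ML355 was the larger by the test of the difference (0.75, SE 0.15, edgeR adjusted p = 0.0007). CTPS1, the CTP synthase associated with proliferating cells, measured 133, 132 and 132 CPM with DMSO and 66.9, 76.1 and 79.6 CPM with ML355, and fell by 0.84 on the log2 scale (SE 0.098, edgeR adjusted p = 2.51e-06). It fell by 1.29 (SE 0.099, edgeR adjusted p = 9.35e-08) from 128, 125 and 121 CPM in the control to 49.4, 53.6 and 49.9 CPM in the libraries labelled NVR. Its paralog CTPS2 passed the threshold in neither comparison, with log2 fold changes of 0.082 (SE 0.11) and -0.37 (SE 0.11, edgeR adjusted p = 0.0123). CAD, which carries out the first steps of the pathway, overlapped between ML355 and DMSO at -0.21 (SE 0.11) but was lower in the libraries labelled NVR, at 101, 115 and 101 CPM against 178, 202 and 193 CPM (-0.85, SE 0.10, edgeR adjusted p = 1.18e-05). DHODH, the mitochondrial step between CAD and UMPS, had log2 fold changes of 0.33 (SE 0.15, edgeR adjusted p = 0.074) with ML355 and -0.39 (SE 0.14, edgeR adjusted p = 0.0331) in the libraries labelled NVR.

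**Figure D3:**
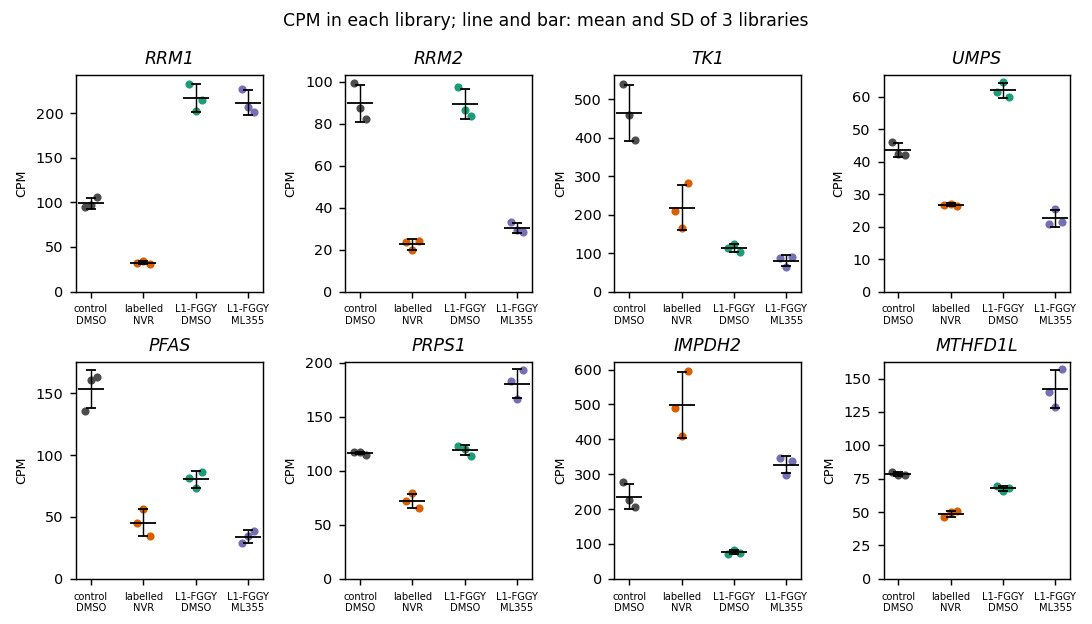
CPM of 8 members in each library (points), with the mean and the SD of the 3 libraries of a group as line and bar, on axes that start at 0. RRM2 and PFAS were lower in both inhibitor groups than in their DMSO groups, RRM1 was lower in the libraries labelled NVR and overlapped with ML355, and PRPS1 and MTHFD1L were higher with ML355 and lower in the libraries labelled NVR.

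PRPS1 and PPAT, at the start of purine synthesis, rose with ML355 and fell in the libraries labelled NVR. PRPS1, a synthetase of PRPP, measured 183, 166 and 193 CPM with ML355 and 123, 120 and 114 CPM with DMSO, a log2 fold change of 0.60 (SE 0.10, edgeR adjusted p = 9.74e-05). Its level was 117, 117 and 115 CPM in the control and 72.1, 79.0 and 66.0 CPM in the libraries labelled NVR, a log2 fold change of -0.68 (SE 0.10, edgeR adjusted p = 6.78e-05). The directions were thus opposite, with no overlap in either comparison. Its paralog PRPS2 overlapped between ML355 (135, 130 and 131 CPM) and DMSO (127, 143 and 136 CPM), and fell in the libraries labelled NVR by 0.73 on the log2 scale (SE 0.095, edgeR adjusted p = 2.07e-05). PPAT, which commits PRPP to the pathway, measured 54.3, 60.6 and 52.5 CPM with ML355 and 43.9, 39.3 and 37.3 CPM with DMSO, a log2 fold change of 0.47 (SE 0.12, edgeR adjusted p = 0.00336). It measured 13.6, 14.1 and 11.4 CPM in the libraries labelled NVR and 23.7, 24.6 and 29.0 CPM in the control, a log2 fold change of -0.99 (SE 0.13, edgeR adjusted p = 1.83e-05). PAICS, which shares the promoter region with PPAT, measured 323, 292 and 302 CPM with ML355 and 354, 337 and 350 CPM with DMSO, a log2 fold change of -0.18 (SE 0.092, edgeR adjusted p = 0.0982) without a call. PAICS fell by 0.94 (SE 0.093, edgeR adjusted p = 1.37e-06) in the libraries labelled NVR. The call of PPAT with ML355 was lost without OV-L1-FGGY library 2 (edgeR adjusted p = 0.017) or 3 (0.0242), without ML355 library 2 (0.0167), and with the library size as the only scaling (0.0737).

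PFAS, which makes the formylglycinamidine intermediate, had the largest fall of the purine genes in both comparisons. It measured 28.6, 34.4 and 38.9 CPM with ML355 and 81.9, 73.1 and 86.2 CPM with DMSO, a log2 fold change of -1.24 (SE 0.16, edgeR adjusted p = 8.40e-06). The libraries labelled NVR held 45.1, 56.7 and 34.4 CPM and the control 136, 161 and 163 CPM, a log2 fold change of -1.76 (SE 0.16, edgeR adjusted p = 6.67e-07). All values of either inhibitor group lay below all values of the DMSO group it was compared with. GART, an enzyme with several activities in the same pathway, measured 184, 183 and 189 CPM with ML355 against 153, 140 and 141 CPM, a log2 fold change of 0.36 (SE 0.11, edgeR adjusted p = 0.0106) just outside the threshold. In the libraries labelled NVR it fell by 0.84 (SE 0.11, edgeR adjusted p = 2.52e-05). ADSL, which acts in the main pathway and again on the way to AMP, was lower with ML355 at 2.07, 2.11 and 2.42 CPM against 3.10, 3.79 and 4.18 CPM (-0.75, SE 0.21, edgeR adjusted p = 0.00587). It was the member with the lowest level per length, and it shares 11.1% of all its annotated exon bases with a readthrough gene on the same strand. The shared 1344 bases stand beside a canonical transcript of 4359 bp, so that the level of ADSL is uncertain. Its call was lost without OV-L1-FGGY library 2 (edgeR adjusted p = 0.017) or 3 (0.0282), or without ML355 library 1 (0.0189) or 2 (0.0159). ATIC, which completes IMP, passed the threshold in neither comparison, at -0.18 (SE 0.10) and -0.095 (SE 0.10).

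From IMP, the gene of the rate-limiting step to GMP showed the largest rise. This gene, IMPDH2, shares 1680 exon bases (32.8% of its annotated ones) with a protein-coding gene on the same strand. That gene has no row of counts, and the canonical transcript of IMPDH2 has 1651 bp, so that the level of IMPDH2 is uncertain. IMPDH2 measured 72.7, 83.9 and 73.7 CPM in OV-L1-FGGY with DMSO and 346, 299 and 338 CPM with ML355, a 4.27-fold difference (log2 fold change 2.09, SE 0.15, edgeR adjusted p = 1.32e-08). It measured 277, 226 and 205 CPM in the control and 491, 409 and 596 CPM in the libraries labelled NVR, a 2.11-fold difference (log2 fold change 1.08, SE 0.14, edgeR adjusted p = 2.70e-05). IMPDH2 was higher in every library of each inhibitor group than in any library of the DMSO group it was compared with. In DMSO, its level was 3.07-fold lower in OV-L1-FGGY than in the control. Its paralog IMPDH1 fell with ML355 by 0.48 on the log2 scale (SE 0.13, edgeR adjusted p = 0.00617), from 89.3, 93.3 and 82.9 CPM to 56.1, 65.3 and 68.9 CPM, a call that was lost without OV-L1-FGGY library 1 (edgeR adjusted p = 0.0189) or 2 (0.0249), or without ML355 library 1 (0.0373) or 2 (0.0134). In the libraries labelled NVR (142, 119 and 169 CPM) IMPDH1 overlapped the control (161, 147 and 128 CPM). GMPS, which completes GMP, rose with ML355 by 0.46 (SE 0.094, edgeR adjusted p = 0.000583), from 158, 155 and 157 CPM to 235, 209 and 203 CPM, a call lost with the library size as the only scaling (edgeR adjusted p = 0.0137). In the libraries labelled NVR it was lower, at 72.7, 69.5 and 73.0 CPM against 110, 103 and 106 CPM (-0.57, SE 0.095, edgeR adjusted p = 0.000199). ADSS2, the first step from IMP to AMP, measured 72.0, 72.6 and 68.8 CPM with ML355 and 119, 108 and 113 CPM with DMSO, and fell by 0.67 (SE 0.16, edgeR adjusted p = 0.00234), a call lost without OV-L1-FGGY library 1 (0.0109) or ML355 library 3 (0.011). ADSS2 measured 31.0, 34.6 and 37.7 CPM in the control and 18.4, 24.4 and 12.6 CPM in the libraries labelled NVR, and fell by 0.89 (SE 0.17, edgeR adjusted p = 0.000606). With ML355 the GMP branch thus held 2 genes that rose and 1 that fell, and the AMP-specific ADSS2 fell.

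With ML355, MTHFD1L rose, SHMT1 fell and MTHFD1 was not called, while all 3 folate genes fell in the libraries labelled NVR. MTHFD1L, the mitochondrial enzyme that releases formate for purine and thymidylate synthesis, measured 140, 129 and 157 CPM with ML355 and 69.9, 65.6 and 67.7 CPM with DMSO, a log2 fold change of 1.07 (SE 0.10, edgeR adjusted p = 2.56e-07). Its level in the libraries labelled NVR was 46.4, 49.7 and 50.6 CPM, against 80.4, 77.6 and 77.8 CPM in the control, a log2 fold change of -0.69 (SE 0.10, edgeR adjusted p = 6.49e-05). The effects on MTHFD1L differed by -1.76 (SE 0.14, edgeR adjusted p = 1.18e-07), the largest difference among the 35. MTHFD1, the cytosolic enzyme that charges folate with formate, overlapped between ML355 (94.8, 87.8 and 94.2 CPM) and DMSO (107, 91.5 and 110 CPM). It fell by 1.55 (SE 0.14, edgeR adjusted p = 3.78e-07) in the libraries labelled NVR, to 36.8, 49.1 and 34.1 CPM from 105, 120 and 126 CPM. SHMT1, the cytosolic serine hydroxymethyltransferase, measured 28.2, 29.9 and 31.9 CPM with ML355 and 47.1, 57.6 and 48.9 CPM with DMSO, and fell by 0.77 (SE 0.11, edgeR adjusted p = 1.60e-05). It fell by 1.01 (SE 0.11, edgeR adjusted p = 2.38e-06) from 81.1, 82.9 and 79.3 CPM in the control to 39.9, 42.2 and 38.5 CPM in the libraries labelled NVR, and the groups of each pair were apart.

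Of the 5 salvage and transport genes, 4 fell in the libraries labelled NVR and 1 rose with ML355. DCK, the kinase that activates deoxycytidine, measured 10.3, 12.0 and 8.17 CPM in the libraries labelled NVR and 17.8, 16.6 and 20.8 CPM in the control (-0.85, SE 0.15, edgeR adjusted p = 0.000393). SLC29A1, the equilibrative nucleoside transporter of the plasma membrane, measured 58.3, 54.1 and 66.8 CPM against 107, 102 and 98.7 CPM (-0.78, SE 0.11, edgeR adjusted p = 3.79e-05). Both pairs of groups were apart. UCK2, a kinase of uridine and cytidine, and HPRT1, which salvages hypoxanthine and guanine, fell less, by 0.46 (SE 0.096, edgeR adjusted p = 0.00136) and by 0.40 (SE 0.098, edgeR adjusted p = 0.00402). The call for HPRT1 was lost without control library 1 (edgeR adjusted p = 0.0218) or 2 (0.0122), or without labelled NVR library 1 (0.0232) or 3 (0.0106), and that for UCK2 without labelled NVR library 1 (0.0101). With ML355, SLC29A1 had a log2 fold change of 0.35 (SE 0.11, edgeR adjusted p = 0.012), and DCK, HPRT1 and UCK2 lay between -0.29 and 0.13, all without a call. APRT, which salvages adenine, measured 91.0, 64.7 and 132 CPM with ML355 and 48.6, 57.3 and 59.9 CPM with DMSO (0.79, SE 0.24, edgeR adjusted p = 0.00925). Its groups did not overlap, but the ML355 values spread widely, and without ML355 library 3 the log2 fold change was 0.49 and the edgeR adjusted p = 0.0802. Its call was also lost without ML355 library 1 (0.0195), without labelled NVR library 1 (0.014), and without any of the 6 DMSO libraries (0.0114 to 0.0463). Limma voom (limma adjusted p = 0.0191) did not call APRT either. In edgeR the call was lost with the library size as the only scaling (0.0118), with only the 2 groups compared (0.0117) and with at least 10 counts required in every library (0.0145). In all, 13 of 20 alternatives lost it.

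The kinases that convert nucleoside mono- and diphosphates passed the threshold in neither inhibitor comparison. CMPK1, the UMP and CMP kinase, measured 81.7, 81.7 and 77.3 CPM in the libraries labelled NVR and 85.6, 81.4 and 79.8 CPM in the control, and 201, 202 and 199 CPM with ML355 against 238, 223 and 207 CPM with DMSO. It was therefore higher in all 6 OV-L1-FGGY libraries than in the other 6. NME1, a nucleoside diphosphate kinase, ran from 28.8 to 70.1 CPM within the libraries labelled NVR and from 39.6 to 67.6 CPM within the control. NME2 ran from 0.772 to 2.89 CPM with ML355, the widest relative spread of any member in any group (CV 57.4%). NME1 and NME2 share 18.7% and 24.2% of all their annotated exon bases with the readthrough gene NME1-NME2, which had 0 counts in every library. The shared 638 and 603 bases stand beside canonical transcripts of 890 and 690 bp, and the levels of NME1 and NME2 are uncertain for this reason.

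Without inhibitor, the members' shares were near the background of all genes. In DMSO, 14 members were higher and 13 lower in OV-L1-FGGY than in the control (40% and 37.1%), against a background of 32.5% higher and 36.2% lower among all genes tested, and the median was -0.01. With the library size as the only scaling the members' median was 0.08. The largest rises were in ADSS2 (119, 108 and 113 CPM against 31.0, 34.6 and 37.7 CPM, log2 fold change 1.72, SE 0.17, edgeR adjusted p = 1.07e-07), in PRPS2 (1.44, SE 0.095, edgeR adjusted p = 8.42e-10) and in CMPK1 (1.44, SE 0.095, edgeR adjusted p = 9.17e-10). RRM1 rose by 1.13 (SE 0.10, edgeR adjusted p = 4.13e-08) and TYMS by 0.95 (SE 0.16, edgeR adjusted p = 4.24e-05), while RRM2 did not pass the test. Among the falls, DTYMK measured 31.0, 32.6 and 24.4 CPM against 218, 169 and 151 CPM (-2.61, SE 0.21, edgeR adjusted p = 1.22e-08). TK1 fell by 2.04 (SE 0.19, edgeR adjusted p = 4.77e-08), DHODH by 1.94 (SE 0.15, edgeR adjusted p = 6.29e-09), IMPDH2 by 1.62 (SE 0.15, edgeR adjusted p = 4.68e-08) and APRT by 1.38 (SE 0.24, edgeR adjusted p = 6.44e-05). De novo and salvage genes were thus found on both sides. The call for NME1 was lost without control library 1, at a log2 fold change of -0.72 (edgeR adjusted p = 0.0193), or without OV-L1-FGGY library 1 (0.0124).

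Transcript length moved with this comparison. Of the 10 members with a canonical transcript under 2000 bp, 8 were lower in OV-L1-FGGY and 1 higher, and of the 25 longer members, 5 were lower and 13 higher. Over all genes tested with a known length, 39.1% of the 6193 shorter genes were lower and 22.2% higher, against 34.6% and 38.2% of the 11508 longer ones. In the libraries labelled NVR against the control, 3 of the 10 shorter and 19 of the 25 longer members were lower. The same held for 6.06% of all shorter and 20.4% of all longer genes. With ML355 against DMSO, 1 of the 10 shorter and 8 of the 25 longer members were lower, and 2 and 4 were higher. Over all genes, 15.6% of the shorter and 27.7% of the longer ones were lower there, and 23.5% and 20.3% were higher. Among the libraries labelled NVR, library 3 had the lowest scaling factor of all 12 (0.828), and without any test it held more NME1 (log2 ratio 1.29), DTYMK (0.90) and APRT (0.86) and less ADSS2 (-0.95) and PFAS (-0.72) than library 2. These were the largest ratios in each direction, and the ratios did not follow length throughout. GMPS (8631 bp) had a ratio of 0.07, HPRT1 (1395 bp) of 0.03 and DHODH (4669 bp) of 0.55. The part of transcript length in the members' differences was not tested, and the limit of 2000 bp was chosen after these values were seen.

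As their label implies, the libraries labelled NVR were compared with OV-L1-FGGY in DMSO, a comparison that also crosses the gap in FGGY and shares its DMSO libraries with the ML355 comparison. In it 10 members were higher and 23 lower, against a background of 38.2% and 35.4% of all genes, and the median was -0.77, against 0.08 over all genes. Of the 10 members under 2000 bp, 8 were higher and 2 lower, and of the 25 longer members, 2 were higher and 21 lower. Over all genes tested with a known length, 46% of the shorter ones were higher and 21.3% lower, against 34% and 43.2% of the longer ones. The part of transcript length was not tested here either. RRM1 fell by 2.73 (SE 0.11, edgeR adjusted p = 1.83e-12), ADSS2 by 2.61 (SE 0.18, edgeR adjusted p = 8.80e-10), PRPS2 by 2.17 (SE 0.098, edgeR adjusted p = 7.24e-12), TYMS by 2.10 (SE 0.17, edgeR adjusted p = 6.14e-09) and RRM2 by 2.0 (SE 0.12, edgeR adjusted p = 3.17e-10). The highest were IMPDH2 (2.70, SE 0.15, edgeR adjusted p = 1.15e-10), DTYMK (1.99, SE 0.21, edgeR adjusted p = 2.13e-07) and APRT (1.71, SE 0.24, edgeR adjusted p = 6.25e-06). CAD and ADSL passed in neither direction. Of the 10 higher genes, IMPDH2 was also higher against the control, TK1 was lower against it, and DTYMK, DHODH, DCTD, ATIC, IMPDH1, APRT, NME1 and NME2 were not called against it.

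**Figure D4:**
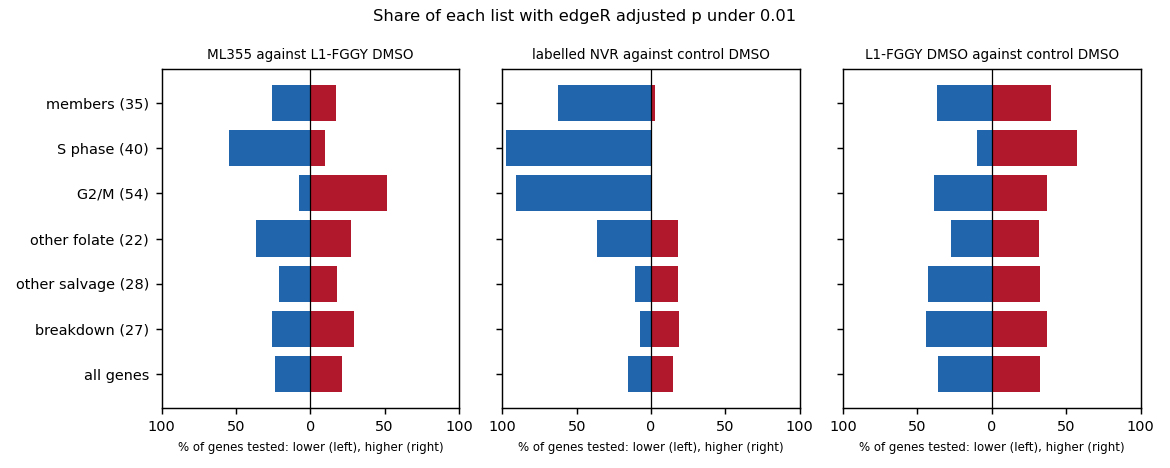
Share of each gene list called higher (to the right) or lower (to the left) at an edgeR adjusted p under 0.01, in percent of the genes tested, for 3 comparisons and with all genes tested as the last row. The number of genes tested stands in parentheses, and the S phase list, from which the members were removed, was lower in 97.5% of its genes in the libraries labelled NVR and in 55% with ML355.

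The lists around the members differed between the comparisons. Of 40 S phase marker genes other than the members, 39 were lower in the libraries labelled NVR and 0 higher, with a median of -1.82, and 22 were lower and 4 higher with ML355, with a median of -0.47. Of 54 G2/M marker genes, the libraries labelled NVR had 49 lower and 0 higher (median -1.0), but 28 were higher and 4 lower with ML355 (median 0.45). In the DMSO comparison of OV-L1-FGGY with the control, 23 of the 40 S phase genes were higher and 4 lower. The part of the cell cycle genes in the members' differences was not tested. Of 24 regulators of proliferation and nucleotide genes, the libraries labelled NVR had 14 lower and 0 higher, among them E2F2 (-3.36, SE 0.19, edgeR adjusted p = 6.78e-09) and E2F1 (-2.42, SE 0.15, edgeR adjusted p = 1.63e-08), activators of S phase transcription. With ML355, 10 of these regulators were lower and 7 higher. ATF4, the transcription factor of the integrated stress response, had the highest rise among them, at 1321 ± 110 CPM against 367 ± 33.4 CPM with DMSO (SD, n = 3, log2 fold change 1.85, edgeR adjusted p = 1.78e-08), while E2F3 (-1.41, edgeR adjusted p = 5.02e-08) and TFDP1 (-1.03, edgeR adjusted p = 6.49e-07) fell.

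Other folate and one-carbon genes moved in both directions with ML355. Of 22 tested, 6 were higher and 8 lower with ML355, and the libraries labelled NVR had 4 higher and 8 lower. MTHFD2, the mitochondrial enzyme that acts just before MTHFD1L, measured 530 ± 48.0 CPM with ML355 and 105 ± 7.65 CPM with DMSO (SD, n = 3, log2 fold change 2.34, edgeR adjusted p = 1.45e-10), and fell by 0.74 (edgeR adjusted p = 3.36e-05) in the libraries labelled NVR. SLC19A1, the reduced folate carrier, fell in both comparisons, by 1.42 (edgeR adjusted p = 1.41e-06) and by 1.13 (edgeR adjusted p = 1.85e-05). PHGDH, the first step of serine synthesis, rose in both, by 1.27 (edgeR adjusted p = 2.16e-06) and by 0.92 (edgeR adjusted p = 0.000119).

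Other salvage, kinase and transport genes stood near the background. Of 28 tested, 5 were higher and 6 lower with ML355, and the libraries labelled NVR had 5 higher and 3 lower. RRM2B, the alternative small subunit of ribonucleotide reductase, rose with ML355 by 1.80 (edgeR adjusted p = 4.91e-08), where RRM2 fell, and had a log2 fold change of 0.24 (edgeR adjusted p = 0.18) in the libraries labelled NVR. SLC29A2, another equilibrative transporter, rose with ML355 by 1.19 (edgeR adjusted p = 2.35e-07). Of 27 genes of nucleotide breakdown and pool sanitation, 8 were higher and 7 lower with ML355, and the libraries labelled NVR had 5 higher and 2 lower. UPP1, the uridine phosphorylase, rose with ML355 by 3.33 (edgeR adjusted p = 1.23e-09), SAMHD1, which degrades deoxynucleoside triphosphates, fell by 2.43 (edgeR adjusted p = 2.23e-09), and adenosine deaminase ADA rose by 1.72 (edgeR adjusted p = 4.84e-07).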

How the data were processed

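RNA of 12 NCI-H520 libraries was sequenced, and the authors deposited whole-number counts per gene, made with STAR 2.5.3a on hg38 and HTSeq 0.11.2 according to the submitters' processing notes. The annotation release, strand setting and handling of multi-mapped reads are not given in the sources used here, and the labels name a TruSeq kit where the methods name another. Groups follow the labels.

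Of 58302 gene rows, 57532 were matched to a GENCODE 44 symbol, and levels per length use the Ensembl canonical transcript. Counts were fitted with edgeR 4.0.16 in R 4.3.3 (TMM scaling, filterByExpr, a robust quasi-likelihood fit with 1 mean for each group). The p-values were adjusted by Benjamini and Hochberg over all 17849 genes tested and called at under 0.01. CPM values are TMM-scaled, and the SE is the log2 fold change divided by the root of F. The common biological coefficient of variation was 0.143. The fit was tested on simulated data.

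The members, role groups and 6 further lists were chosen with earlier results of these data known. Named by rule were called members (at most 8 per direction by p), paralog pairs, the members with the smallest and largest p of each role group, and at most 5 genes of each further list by p. Other members named, ADA and the transcript length split were chosen after their values were seen. Alternatives were DESeq2 1.42.0, limma 3.58.1 voom (the study's test), other scalings and filters, fits of 2 groups, a replicate block, each library left out, and other thresholds. Equal replicate numbers did not deviate together: the mean correlation of same-numbered libraries ran from -0.0495 to 0.0728. ADSL and IMPDH2 had no promoter window. Protein sequences were not analysed here. Some genes of the lists are not reported here.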

Additional observations from a re-analysis of the deposited data

Results flagged for a closer look

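The change in the libraries labelled NVR against the control differed from the change with ML355 against DMSO in OV-L1-FGGY for 16 of the 35 genes, by a test of the difference itself (edgeR adjusted p under 0.01). The differences were -1.76 for MTHFD1L, -1.57 for RRM1, -1.46 for PPAT, -1.39 for MTHFD1, -1.29 for PRPS1, -1.19 for GART, -1.13 for SLC29A1, -1.03 for GMPS and -1.01 for IMPDH2 on the log2 scale. They were -0.96 for DCK, -0.75 for PAICS, -0.72 for DHODH, -0.69 for PRPS2, -0.65 for CAD and -0.52 for HPRT1, and 0.75 for UMPS. For MTHFD1L, PPAT, PRPS1 and GMPS the effects were called in opposite directions, and for IMPDH2 and UMPS both were called in the same direction with different sizes. Neither effect on DHODH was called by itself, and its difference lost its call in 15 of 19 alternatives. The calls for CAD were lost without control library 2 (edgeR adjusted p = 0.0103) or labelled NVR library 1 (0.0108), and those for HPRT1 without control library 1 (0.021) or 2 (0.0136), OV-L1-FGGY library 2 (0.015) or 3 (0.0223), ML355 library 1 (0.0136), or labelled NVR library 1 (0.0225) or 2 (0.0105). Both the compound and the DMSO baseline change between the 2 effects, so that their parts cannot be told apart.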

How the results depend on the processing

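Of 114 calls of a member in a comparison, 92 held in every alternative fit (19 for the difference and 20 for each other comparison, with the threshold kept), 22 were lost in at least 1 and 0 reversed. The calls that held were 8 of 15 with ML355, 20 of 23 in the libraries labelled NVR against the control, 28 of 33 against OV-L1-FGGY, 23 of 27 for OV-L1-FGGY against the control and 13 of 16 for the difference. With the library size as the only scaling, 3 members were higher with ML355. A log2 fold change of 1 or more in size was passed by 2 higher and 3 lower members with ML355. In the libraries labelled NVR it was passed by 1 higher and 8 lower against the control, and 5 higher and 15 lower against OV-L1-FGGY. It was passed by 4 higher and 7 lower in OV-L1-FGGY against the control, and by 0 higher and 9 lower for the difference. The shares of all genes under this limit are not reported here. Leaving out each library gave with ML355 4 to 8 higher and 6 to 11 lower members, for labelled NVR against the control 1 to 1 and 20 to 23, 8 to 10 and 22 to 23 against OV-L1-FGGY, 13 to 14 and 10 to 13 for OV-L1-FGGY against the control, and 1 to 2 and 12 to 17 for the difference, with 2 higher without labelled NVR library 2. The cause of these shifts was not tested, except that the fold limit removes calls by construction.

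The replicate numbers share only a number in the labels. With the replicate block, 6 members were higher and 8 lower with ML355, 1 and 22 for labelled NVR against the control, 9 and 23 against OV-L1-FGGY, 14 and 13 for OV-L1-FGGY against the control, and 1 and 14 for the difference. IMPDH1 with ML355 (-0.48, edgeR adjusted p = 0.012), ATIC against OV-L1-FGGY (0.33, 0.0103) and DHODH in the difference (-0.73, 0.0119) were no longer called, and the block changed no other member's call.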
